A study of Homo sapiens with 9 samples.

Results

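The genes described are 37 regulators of cell death, taken by symbol from the 58051 genes counted: the BCL2 family, caspases and their inhibitors, and a death ligand with death receptors and their adaptors. Canonical p53 targets were left out of the list. RNA was measured in A431 cells, an epidermoid carcinoma line whose own p53 is a mutant form. A431 parental (mutp53) cells were unmodified, A431 Ctrl (mutp53) cells carried the CRISPR construct as an empty vector, and A431 p53 KO cells had been made with CRISPR against p53. Each group had 3 libraries of poly(A) RNA from cells in medium with serum, harvested 48 h after they had settled. The labels' treatment protocol says that cells grew as single colonies but not whether each line is 1 clone, and clone and p53 loss cannot be told apart. Nothing in the labels says that the 3 libraries of a group came from separate cultures, and p-values measure the spread between these libraries, which may be technical.

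Apoptosis can start inside the cell or at its surface. In the intrinsic pathway, BH3-only proteins release the pore-forming members of the BCL2 family from their anti-apoptotic relatives, cytochrome c leaves the mitochondria, and APAF1 assembles with caspase-9 into the apoptosome. In the extrinsic pathway, ligands such as TRAIL bind death receptors that recruit caspase-8, and BID carries the signal to the mitochondria. Inhibitor of apoptosis proteins and CFLAR restrain the caspases, and when caspase-8 is blocked RIPK3 and MLKL can carry out necroptosis. Mutant p53 lacks much of the DNA binding by which the wild-type protein turns on several of these genes.

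Library totals ran from 19783778 to 29840452 counts on genes. EGFR and KRT5, genes typical of A431 and of squamous epithelium, had at least 9650 counts in every library, and KRT14 had at most 13. KRT6A was higher in p53 KO cells than in parental, by 2.35 ± 0.095 (SE) on the log2 scale (edgeR, adjusted p = 2.14e-07), and CDH1 lower, by -0.32 ± 0.085 (adjusted p = 0.0245). Ctrl was below parental in EGFR, by -0.65 ± 0.099 (edgeR, adjusted p = 0.00128), and also in KRT17 and KRT6A. KRT5 was higher in p53 KO and in Ctrl than in parental cells. Cells of the p53 KO line were above Ctrl in EGFR and KRT6A and below it in CDH1. TP63 and DSG3 were not called in any comparison. Of 5 markers of other cells, PTPRC and CD3E had no count, PECAM1 had 1 to 13, CD68 15 to 42 and COL1A1 47 to 114, and their part in the results was not tested. Ctrl replicate 1 stood apart: chi-square per degree of freedom against the other Ctrl libraries was 39.4 and 51.8, where 1 would be counting error alone and the other pairs within a group had 5.35 to 16.5. Numbers of genes called are given with and without it, and those of the 37 genes newly called without it are named.

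The promoters of 30 of the 37 genes were found in RefSeq (GRCh38.p14), each from 250 bases before to 50 after the start of the gene, and were searched on both strands. A pair of stretches is shown because TNFSF10 and BIRC3 are the ligand and the caspase-pathway inhibitor whose RNA differed in all 3 comparisons, and each holds a match to a motif of a signal pathway. The TNFSF10 stretch lies on the minus strand at chr3:172523588-172523637, from 207 to 158 bases before the start. Its capitals mark the core of the interferon-stimulated response element, GAAANNGAAA, read here from the other strand. The BIRC3 stretch lies on the plus strand at chr11:102317265-102317378, from 219 to 106 bases before the start. Its capitals mark 2 matches to the kappaB consensus of NF-kappaB, both read here from the other strand.
TNFSF10: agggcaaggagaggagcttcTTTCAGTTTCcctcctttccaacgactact
BIRC3: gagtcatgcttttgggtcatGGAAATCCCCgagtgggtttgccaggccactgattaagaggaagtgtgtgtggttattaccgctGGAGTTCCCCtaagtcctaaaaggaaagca
The response element core was chosen with interferon-stimulated genes already known to be higher in p53 KO cells here, so its count only describes. It was present in a promoter of 6 of the 30 genes (TNFRSF1B, CASP8, TNFSF10, RIPK1, BCL2L14 and BCL2A1) and of 4.38% of all 27305 genes with a promoter. The kappaB consensus was present in 3 (CFLAR, BIRC3 and BMF) and in 7.09% of all genes with a promoter, and it was looked for after the values of BIRC3 were seen. The 2 motifs did not overlap in any of these promoters. Of the 6 genes that hold the response element core, TNFSF10 was called in all 3 comparisons and CASP8, RIPK1 and BCL2L14 in none by edgeR, and the remaining genes were not tested. Of the 3 that hold the kappaB consensus, BIRC3 and BMF were called in all 3 comparisons and CFLAR in none. Ctrl was the lowest group in BIRC3 and the highest in BMF.

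Of the 37 genes, 33 passed the filter on low counts and were tested among 14513 genes. BCL2A1 had 2 counts in Ctrl replicate 3 and none elsewhere, TNFRSF1B had 2 counts in p53 KO replicate 2 and none elsewhere, and RIPK3, the kinase that activates MLKL, had 0 counts in all 9 libraries. A count of 0 allows up to 3 counts per library, which covers counting error only. HRK, a BH3-only gene, had 3 to 6 counts in the control libraries and 17, 11 and 5 in the p53 KO libraries. CPM (counts scaled to library size by TMM) per kb of exon sets genes of different length side by side. On that scale TNFRSF21 (death receptor 6) was the highest, at 143 ± 2.4 (SD, n = 3) in parental cells, and the anti-apoptotic genes MCL1 and BCL2L1 reached 49.1 ± 1.1 and 33.6 ± 1.7. BCL2 itself was at 0.408 ± 0.015, lower than all the other tested genes except BMF, at 0.248 ± 0.019, and BCL2L14, at 5 to 21 counts per library. CYCS and BAK1 followed MCL1 at 39.0 ± 1.4 and 33.8 ± 0.58, and BAK1 and BCL2L1 did not differ beyond their spread.

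**Figure D1:**
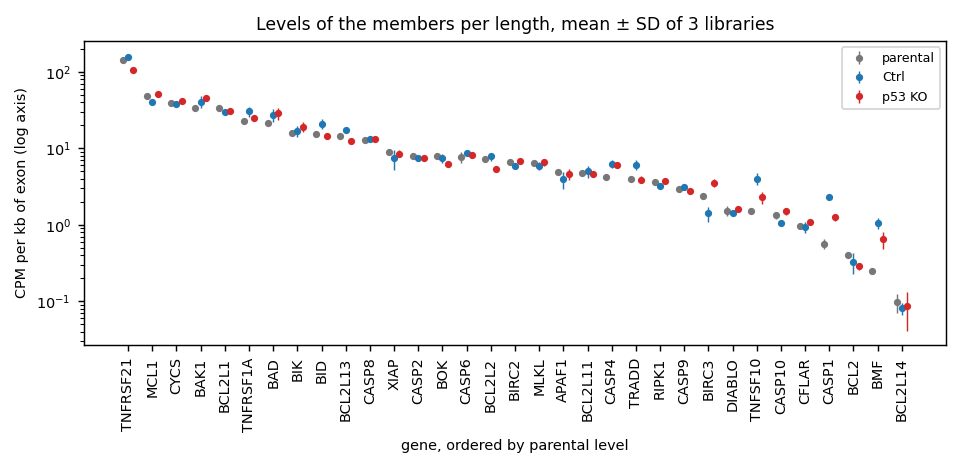
Level of each of the 33 genes tested, as CPM per kb of exon on a log axis, with the mean and SD of 3 libraries per group, ordered by the parental mean. TNFRSF21 is at the top in all 3 groups, and BMF, CASP1 and TNFSF10 show the widest gaps between groups, with parental lowest and Ctrl highest.

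Against parental cells, 6 of the 33 genes were higher in p53 KO cells (BAK1, BMF, CASP1, CASP4, BIRC3 and TNFSF10) and 3 were lower (BCL2L2, BCL2L13 and TNFRSF21). Over all genes tested, 9.77% were called higher and 8.36% lower (adjusted p at most 0.05). Against Ctrl cells, 3 were higher (MCL1, CASP10 and BIRC3) and 8 were lower (BCL2L2, BID, BMF, BCL2L13, CASP1, TNFSF10, TNFRSF21 and TRADD), beside 15% and 14.2% of all genes. Ctrl cells differed from parental cells in as many, with 8 higher (BID, BMF, BCL2L13, CASP1, CASP4, TNFSF10, TNFRSF1A and TRADD) and 3 lower (MCL1, CASP10 and BIRC3), beside 10.6% and 9.69%. The median size of the log2 fold change over the 33 genes was 0.118, 0.219 and 0.23 in these comparisons, against 0.197, 0.23 and 0.235 over all genes. The comparisons share libraries, and agreement between them is not independent. Without Ctrl replicate 1, 12 of the 33 genes were called against parental, 15 against Ctrl (BAK1, BIK, BCL2L11 and MLKL were added) and 11 between Ctrl and parental, beside 33.5%, 35% and 20.7% of all genes. In bulk RNA, fewer cells that express a gene and less RNA per cell cannot be told apart.

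**Figure D2:**
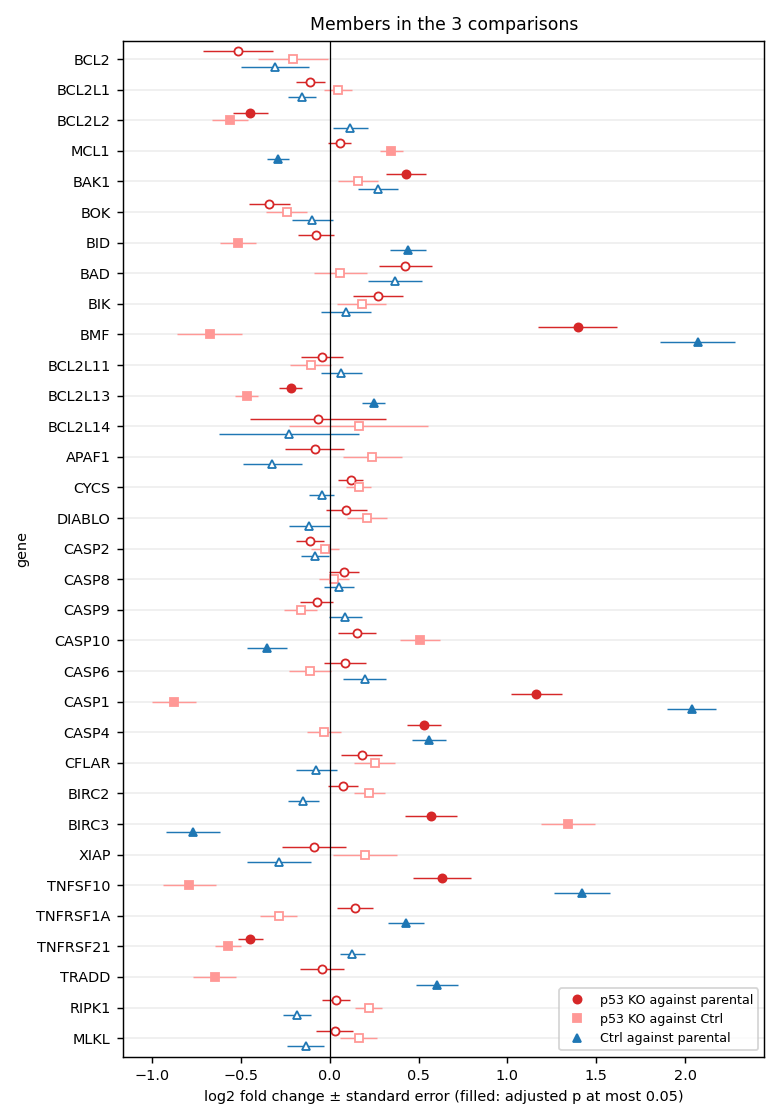
Log2 fold change of each of the 33 genes in the 3 comparisons, with its standard error; filled symbols have an adjusted p of at most 0.05. BMF and CASP1 lie furthest from 0, and most other genes lie between -0.6 and 0.6.

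Both controls gave the same call for 4 genes, BIRC3 upward and BCL2L2, BCL2L13 and TNFRSF21 downward, where 6.46% of all genes were called upward and 5.25% downward. In 7 genes the 3 p53 KO libraries did not overlap with the 6 control libraries: MCL1, CYCS, CFLAR and BIRC3 lay above (11.9% of all genes did) and BCL2L2, BCL2L13 and TNFRSF21 below (10.1%). The 4 calls fell to 2 without any 1 of the parental libraries or p53 KO replicate 2, and to TNFRSF21 alone without p53 KO replicate 1. Scaling by plain library totals left 5 of the 7, without MCL1 and CYCS. Without Ctrl replicate 1 the numbers were 5 genes called, BAK1 being added, and 10 genes that did not overlap. Calls over all genes then rose too, to 33.5% against parental and 35% against Ctrl, in place of 18.1% and 29.2%. With fewer control libraries more genes of any kind can lie apart. The share of all genes for either number was not counted in this setting. CYCS and CFLAR were not called in any comparison with all libraries. Where all 3 groups are said below to lie apart, the share of all genes for which that holds was not counted.

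**Figure D3:**
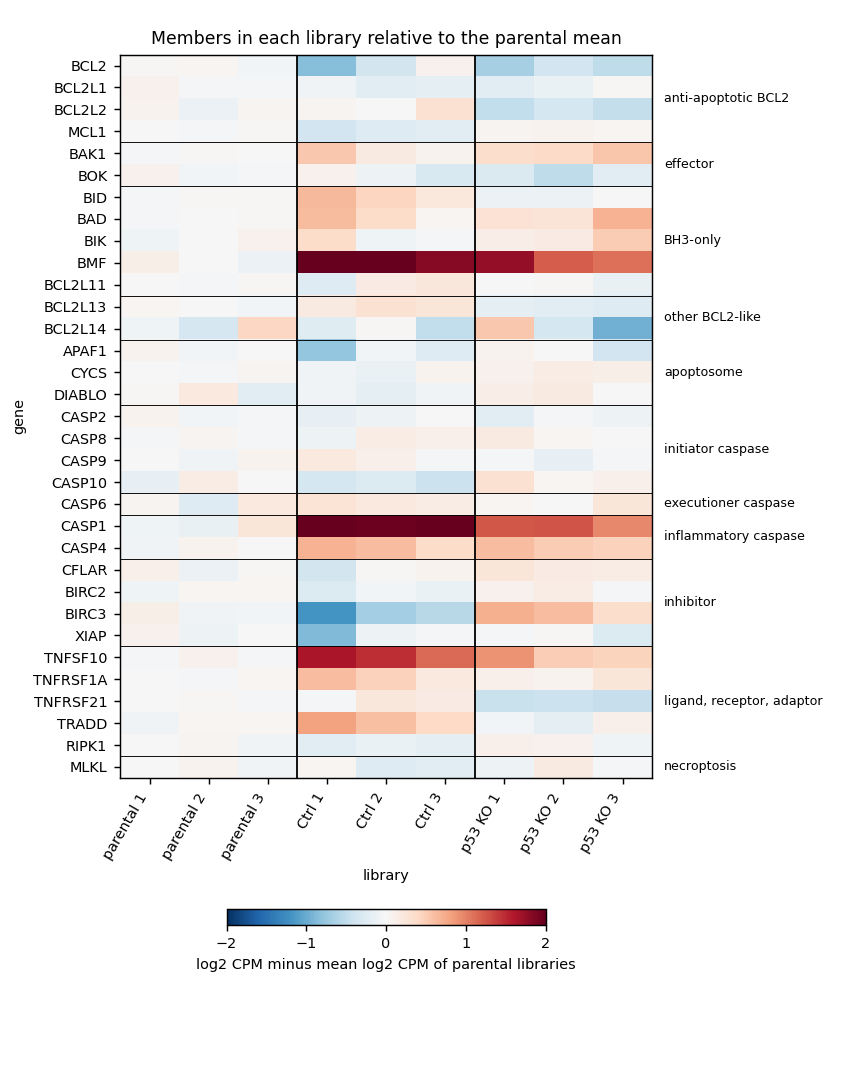
Log2 CPM of each gene in each library minus the mean of the parental libraries, with genes in rows by role and libraries in columns; colours stop at -2 and 2. BMF, CASP1 and TNFSF10 are above the parental mean in all 6 Ctrl and p53 KO libraries, and TNFRSF21 and BCL2L2 are below it in the 3 p53 KO libraries.

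Among the anti-apoptotic genes, BCL2L2, which encodes BCL-w, was lower in p53 KO cells than in both controls. It was read at 36.7, 32.3 and 36.5 CPM in parental, 36.3, 34.7 and 43.2 in Ctrl and 24.8, 27.5 and 25.1 in p53 KO libraries. Every p53 KO library was below every control library, and Ctrl and parental overlapped. The log2 fold change was -0.45 ± 0.101 (SE) against parental (edgeR quasi-likelihood test, adjusted p = 0.0108) and -0.56 ± 0.101 against Ctrl (adjusted p = 0.00163). The call against parental was lost without parental replicate 1 or p53 KO replicate 1, with adjusted p up to 0.0537. The gene (chr14:23298790-23311751) shares 815 bases of exon, 16.8% of its length, with the read-through gene BCL2L2-PABPN1, and reads there could not be assigned to one of them with certainty.

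MCL1, a short-lived guardian of the mitochondrial membrane, was the most abundant of these genes, and p53 KO and parental cells differed by 0.06 ± 0.063 on the log2 scale (edgeR, adjusted p = 0.584). Its level was 307, 298 and 311 CPM in parental, 234, 254 and 261 in Ctrl and 316, 322 and 315 in p53 KO libraries. The Ctrl libraries were the low ones, with a log2 fold change of -0.29 ± 0.063 against parental (edgeR, adjusted p = 0.00947), and p53 KO was above Ctrl by 0.35 ± 0.063 (adjusted p = 0.00173). BCL2L1 (BCL-xL) was not called in any comparison. BCL2 had a log2 fold change of -0.52 ± 0.195 against parental (adjusted p = 0.0931). It passed the threshold, as did the effector-like gene BOK and the BH3-only gene BAD, when Ctrl replicate 1 or 3 was left out, where 33.5% and 20.2% of all genes were called against parental in place of 18.1%. The 3 genes also passed when only the 2 groups were fitted and without the filter on low counts, and DESeq2 called BOK and BAD.

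BAK1 encodes a pore-forming effector. It had 73.3, 75.8 and 75.2 CPM in parental, 109, 84.3 and 78.5 in Ctrl and 95.5, 97.1 and 110 in p53 KO libraries. All p53 KO libraries were above the parental ones, by a log2 fold change of 0.43 ± 0.113 (edgeR, adjusted p = 0.0228), and Ctrl replicate 1 lay among them. The call against parental was lost without any 1 of the parental libraries, and without p53 KO replicate 2 or 3.

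Of the 5 BH3-only genes tested, BMF and BID were called. BMF, a sensor of cell detachment and cytoskeletal stress, was read at 1.45, 1.35 and 1.25 CPM in parental, 6.63, 5.80 and 4.77 in Ctrl and 4.56, 3.12 and 2.88 in p53 KO libraries. The 3 groups did not overlap, with parental lowest and Ctrl highest. Ctrl cells had 4.20-fold the parental level (log2 fold change 2.07 ± 0.212, edgeR, adjusted p = 0.000103), and p53 KO cells 2.63-fold (1.40 ± 0.222, adjusted p = 0.00148). The counts behind these values ran from 27 to 165 per library. The difference between p53 KO and Ctrl, -0.68 ± 0.184 (adjusted p = 0.0174), lost its call without p53 KO replicate 2 or 3.

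BID, which links death receptors to mitochondria, was read at 65.6, 68.9 and 68.6 CPM in parental, 106, 91.4 and 78.4 in Ctrl and 62.6, 62.6 and 67.2 in p53 KO libraries. The Ctrl libraries were above the others, and p53 KO and parental overlapped. Its log2 fold change was -0.52 ± 0.10 between p53 KO and Ctrl (edgeR, adjusted p = 0.00258) and -0.08 ± 0.10 between p53 KO and parental (adjusted p = 0.637). Ctrl was above parental by 0.44 ± 0.10 (adjusted p = 0.0121), a call that was lost without parental replicate 1. BCL2L11 (BIM) and BIK stayed within 0.271 on the log2 scale in all 3 comparisons and were not called with all libraries.

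BCL2L13, a BCL2-like protein of the mitochondrial outer membrane, lies 3.3 kb from BID on chromosome 22 (chr22:17628855-17730855). Levels were 116, 113 and 109 CPM in parental, 128, 139 and 133 in Ctrl and 97.9, 97.1 and 94.4 in p53 KO libraries. The groups did not overlap, with p53 KO lowest. The log2 fold change was -0.22 ± 0.065 against parental (edgeR, adjusted p = 0.0387) and -0.47 ± 0.065 against Ctrl (adjusted p = 0.000317), and Ctrl was above parental by 0.25 ± 0.065 (adjusted p = 0.0234). The call against parental was lost without any 1 of the 6 libraries compared, with adjusted p up to 0.139, and that of Ctrl against parental without any 1 of the parental libraries or Ctrl replicate 2. The 29 genes tested within 2 Mb of BCL2L13 had median log2 fold changes of -0.09, -0.36 and 0.28 in the same 3 comparisons, against 0.006, 0.006 and 0.003 over all genes. The part of the neighbourhood in the change of BCL2L13 and BID was not tested.

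Of the apoptosome genes and those released from mitochondria, APAF1, CYCS and DIABLO, 0 of 3 were called with all libraries and the filter on low counts, by edgeR or DESeq2, and CYCS alone had an unadjusted p under 0.05, against Ctrl. CYCS was called against Ctrl without Ctrl replicate 3, and APAF1 between Ctrl and parental without the filter. CYCS, cytochrome c, was read at 224, 219 and 234 CPM in parental, 214, 206 and 237 in Ctrl and 239, 252 and 244 in p53 KO libraries. The p53 KO libraries were the high ones, by a log2 difference of 0.12 ± 0.07 against parental and 0.16 ± 0.07 against Ctrl. DIABLO shares exons with an overlapping gene on its strand, and its level is uncertain.

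The initiator caspases CASP2, CASP8 and CASP9 had log2 fold changes of at most 0.162 in size and were not called, nor was the executioner CASP6. CASP10, a relative of caspase-8 that lies 4.0 kb from CASP8 and 6.2 kb from CFLAR on chromosome 2, was read at 10.8, 13.3 and 12.1 CPM in parental, 9.38, 9.98 and 8.96 in Ctrl and 14.9, 12.4 and 12.9 in p53 KO libraries. The Ctrl libraries were below all others. The log2 fold change was 0.51 ± 0.111 against Ctrl (edgeR, adjusted p = 0.00553) and 0.15 ± 0.109 against parental (adjusted p = 0.366). Ctrl fell by 0.35 from parental (SE 0.112, adjusted p = 0.0475), and this call was lost without any 1 of the 9 libraries.

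The inflammatory caspases were higher in both modified lines. CASP1, which matures interleukin-1beta in the inflammasome, was read at 2.10, 2.00 and 2.63 CPM in parental, 9.28, 8.68 and 9.57 in Ctrl and 5.27, 5.33 and 4.32 in p53 KO libraries. No library overlapped with another group, and p53 KO lay between the others. Against parental the level was 4.10-fold in Ctrl (log2 fold change 2.04 ± 0.137, edgeR, adjusted p = 6.6e-06) and 2.24-fold in p53 KO cells (1.16 ± 0.144, adjusted p = 0.000343). Between p53 KO and Ctrl it differed by -0.88 ± 0.123 (adjusted p = 0.000334), and CASP1 kept all 3 calls under each of the 15 alternative fits, though with a 2-fold threshold the call between p53 KO and Ctrl was lost. CASP4, a sensor of intracellular lipopolysaccharide 56.0 kb from CASP1 on chromosome 11, had 26.8, 29.7 and 28.3 CPM in parental, 45.7, 43.1 and 36.4 in Ctrl and 43.1, 40.2 and 39.0 in p53 KO libraries. Parental was the low group, by a log2 fold change of 0.53 ± 0.096 from p53 KO (edgeR, adjusted p = 0.00323) and 0.56 ± 0.096 from Ctrl (adjusted p = 0.00267), and p53 KO and Ctrl overlapped. The 8 genes tested within 2 Mb of CASP1 had medians of 0.11 for p53 KO and 0.01 for Ctrl against parental.

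BIRC3 (cIAP2), a ubiquitin ligase of the TNF receptor complex, was the one gene called upward against both controls. Libraries held 19.6, 17.2 and 17.4 CPM in parental, 7.90, 11.3 and 12.4 in Ctrl and 29.6, 27.6 and 23.1 in p53 KO libraries. The 3 groups were apart, with Ctrl lowest and p53 KO highest. The p53 KO level was 2.53-fold that of Ctrl (log2 fold change 1.34 ± 0.152, edgeR, adjusted p = 8.13e-05) and 1.48-fold that of parental cells (0.57 ± 0.147, adjusted p = 0.021). Against parental the call was lost without parental replicate 2 or 3, or p53 KO replicate 1 or 2, with adjusted p up to 0.0908. Its relative BIRC2 (cIAP1), 7.8 kb away on chromosome 11, was not called in any comparison, with 0.08 ± 0.086 against parental and 0.22 ± 0.086 against Ctrl (adjusted p = 0.0757).

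CFLAR, the decoy of caspase-8, and XIAP, the direct caspase inhibitor, were not called, except XIAP between Ctrl and parental without the filter on low counts. XIAP was read at 92.0, 80.6 and 87.2 CPM in parental, 47.1, 80.6 and 84.9 in Ctrl and 84.8, 87.4 and 71.7 in p53 KO libraries. Ctrl replicate 1 was the low one, and the rest overlapped.

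**Figure D4:**
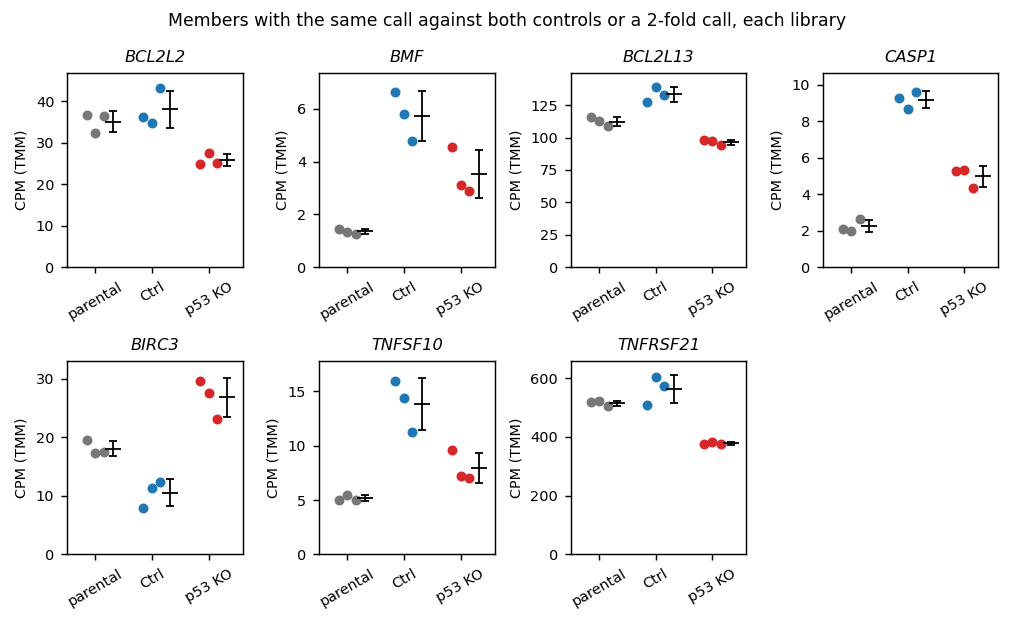
CPM in each library (points) with the mean and SD of 3 libraries per group (bars), for the 7 genes with the same call against both controls or a call of at least 2-fold. Parental, Ctrl and p53 KO libraries do not overlap in BMF, BCL2L13, CASP1, BIRC3 and TNFSF10, and the p53 KO libraries are below all controls in BCL2L2, BCL2L13 and TNFRSF21. The genes shown were picked by their calls, and the share of all genes in which the 3 groups lie apart was not counted.

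TNFSF10 (TRAIL), the death ligand, was read at 5.01, 5.46 and 4.98 CPM in parental, 16.0, 14.4 and 11.3 in Ctrl and 9.56, 7.23 and 7.05 in p53 KO libraries. The groups did not overlap, with parental lowest and Ctrl highest. Ctrl cells had 2.68-fold the parental level (log2 fold change 1.42 ± 0.158, edgeR, adjusted p = 0.000174) and p53 KO cells 1.55-fold (0.63 ± 0.163, adjusted p = 0.0212). The difference between p53 KO and Ctrl was -0.79 ± 0.151 (adjusted p = 0.00243). The call between p53 KO and parental was lost without any 1 of the parental libraries or p53 KO replicate 1, with adjusted p up to 0.0942. The 9 genes tested within 2 Mb of TNFSF10 had medians of -0.53 in p53 KO against parental, opposite in sign to TNFSF10, -0.42 in p53 KO against Ctrl, the same sign, and 0.07 in Ctrl against parental.

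TNFRSF21, the most abundant of the 33 genes by length, was lower in p53 KO cells than in both controls. It was read at 518, 522 and 506 CPM in parental, 509, 603 and 575 in Ctrl and 376, 383 and 375 in p53 KO libraries. The p53 KO libraries were below all controls, and Ctrl and parental overlapped. The log2 fold change was -0.45 ± 0.07 against parental (edgeR, adjusted p = 0.00141) and -0.57 ± 0.071 against Ctrl (adjusted p = 0.000137), and both calls held under each of the 15 alternative fits, with changes smaller than 2-fold. Without Ctrl replicate 1, Ctrl was above parental by 0.19 (adjusted p = 0.0227), against 0.13 ± 0.07 (adjusted p = 0.207) with it. The 10 genes tested within 2 Mb had medians of -0.38 against parental and -0.18 against Ctrl, and their part in the change was not tested.

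TNFRSF1A (TNF receptor 1) and TRADD, its first adaptor, were both higher in Ctrl cells. TRADD was read at 8.26, 8.96 and 8.90 CPM in parental, 15.2, 13.1 and 11.5 in Ctrl and 8.42, 7.64 and 9.38 in p53 KO libraries. The Ctrl libraries were above all others, by 0.60 ± 0.12 on the log2 scale from parental (edgeR, adjusted p = 0.00616), and p53 KO fell by 0.65 from Ctrl (SE 0.12, adjusted p = 0.00203). TNFRSF1A was read at 95.1, 93.0 and 98.2 CPM in parental, 147, 131 and 109 in Ctrl and 103, 101 and 113 in p53 KO libraries. Ctrl replicate 3 lay among the p53 KO libraries, and the difference between p53 KO and Ctrl had an adjusted p of 0.0543. Its call between Ctrl and parental (0.43 ± 0.102, adjusted p = 0.0146) was lost without parental replicate 1 or 2. The kinase RIPK1 and MLKL, which carries out necroptosis, were not called by edgeR with all libraries, and DESeq2 called TNFRSF1A and RIPK1 between p53 KO and Ctrl.

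The rest of the pathway was covered by a list of 40 further genes, of which 32 were tested. Against parental, 6 were higher and 3 lower in p53 KO cells, against Ctrl 9 higher and 2 lower, and between Ctrl and parental 3 higher and 7 lower, beside 18.1%, 29.2% and 20.3% of all genes called in either direction. Without Ctrl replicate 1, the calls came to 13, 12 and 10, beside 33.5%, 35% and 20.7% of all genes. The genes higher than in both controls included CASP14, VDAC2, a channel of the mitochondrial outer membrane, and GSDME, and FAIM was lower. VDAC2 was read at 95.2, 102 and 108 CPM in parental, 122, 107 and 101 in Ctrl and 163, 159 and 175 in p53 KO libraries. The p53 KO libraries were above all controls, by 0.71 ± 0.086 on the log2 scale from parental (edgeR, adjusted p = 0.000307) and 0.59 ± 0.085 from Ctrl (adjusted p = 0.0004).

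CASP14, the caspase of keratinocyte differentiation, had the widest range. Its level was 1.11, 1.19 and 1.25 CPM in parental, 6.43, 7.38 and 6.25 in Ctrl and 36.7, 27.1 and 25.8 in p53 KO libraries. No library overlapped with another group and rose from parental through Ctrl to p53 KO. The log2 fold change was 4.66 ± 0.178 from parental (edgeR, adjusted p = 1.77e-07) and 2.16 ± 0.142 from Ctrl (adjusted p = 1.81e-06).

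PYCARD, NLRP1 and TNFAIP3 were lowest in Ctrl cells. PYCARD, the adaptor that joins sensors to caspase-1, had 67 to 96 counts in parental, 81 to 125 in p53 KO and 10 to 12 in Ctrl libraries, so that Ctrl fell by 2.87 on the log2 scale from parental (SE 0.205, edgeR, adjusted p = 1.01e-05). NLRP1, an inflammasome sensor of keratinocytes, was read at 25.1, 28.8 and 22.1 CPM in parental, 8.11, 9.03 and 9.53 in Ctrl and 16.7, 19.3 and 16.4 in p53 KO libraries. The 3 groups were apart, with Ctrl lowest, and p53 KO differed from parental by -0.54 ± 0.114 (edgeR, adjusted p = 0.00776). Ctrl was thus the group with the highest CASP1 and the lowest PYCARD and NLRP1. TNFAIP3 (A20), a brake on NF-kappaB, was read at 12.6, 9.31 and 10.3 CPM in parental, 2.30, 3.90 and 4.42 in Ctrl and 12.3, 12.7 and 10.8 in p53 KO libraries. Ctrl was the low group, by -1.58 ± 0.197 from parental (edgeR, adjusted p = 0.000362). Of the genes named above with the kappaB consensus, Ctrl was lowest in BIRC3 and highest in BMF, and CFLAR was not called. The promoter of TNFAIP3 also holds matches to it, and the part of NF-kappaB in these values was not tested.

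GSDME, a pore-forming gasdermin, was read at 17.9, 17.3 and 19.2 CPM in parental, 10.0, 10.6 and 10.4 in Ctrl and 22.8, 22.5 and 23.8 in p53 KO libraries. The groups did not overlap, with p53 KO highest, by 0.35 ± 0.078 from parental (edgeR, adjusted p = 0.0107) and 1.15 ± 0.081 from Ctrl (adjusted p = 3.02e-06). XAF1, an interferon-induced partner of XIAP, was at 1.08 ± 0.109 CPM (SD, n = 3) in parental, at 2.98 ± 0.207 in Ctrl and at 3.16 ± 0.178 in p53 KO libraries, higher in both modified lines than in parental (log2 fold changes 1.45 ± 0.155 and 1.55 ± 0.153, edgeR, adjusted p = 0.000129 and 8.97e-05). TRAF1, an adaptor of TNF receptors, was lower in both, at 4 to 11 counts against 16 to 47 in parental libraries.

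**Figure D5:**
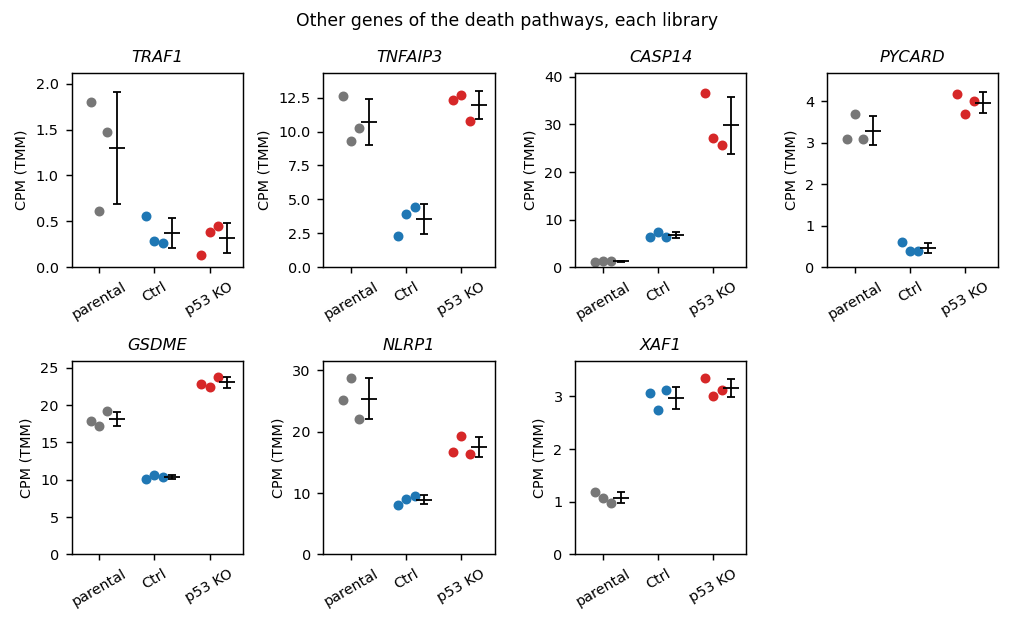
CPM in each library (points) with the mean and SD of 3 libraries per group (bars), for the 7 further pathway genes called with at least a 2-fold change. Ctrl libraries are the lowest in TNFAIP3, PYCARD, GSDME and NLRP1, and p53 KO libraries are the highest in CASP14.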

How the data were processed

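The authors aligned strand-specific poly(A) reads with STAR 2.5.1b to GRCh38, used featureCounts with the genes of Ensembl release 85, and deposited the raw counts. Column names gave the library of each column, and none was left out. In R 4.3.3 with edgeR 4.0.16, genes were filtered with filterByExpr (minimum count 10, 14513 genes kept), scaled by TMM and fitted in 1 model of all 9 libraries. The quasi-likelihood test compared the groups, p-values were adjusted after Benjamini and Hochberg over all genes tested, and a gene was called at an adjusted p of at most 0.05. Standard errors follow from the F statistic. Scripts were tested on simulated data. Positions and exon lengths come from GENCODE release 44 (GRCh38), and all 37 genes were matched. GSDME appears in the counts under its older symbol.

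Values in every library are given for genes with the same call against both controls, or called with a log2 fold change of at least 1 in size. The others are given by counts and ranges, with examples by size of change, to which CYCS, XIAP, MCL1, BID, TNFRSF1A and VDAC2 were added after their values were seen. The genes and lists were chosen with earlier results of these data known. Alternatives were DESeq2 1.42.0 and its size factors, other filters, the replicate number as a block, fits of 2 groups, a 2-fold threshold and each library left out. Leaving Ctrl replicate 1 out of the counts of genes that do not overlap and of further pathway genes was added after the data were seen. Some genes are not reported here. Figures were drawn with matplotlib 3.10.9.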

Additional observations from a re-analysis of the deposited data

Results flagged for a closer look

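In 2 of the 33 genes tested, Ctrl and p53 KO cells were called in opposite directions from parental cells and differed from each other. The genes were picked by these calls, so the tests of p53 KO against Ctrl below and the separation of libraries add no support. GSDME, of the further pathway genes, met the same rule, and the share of all genes that met it was not counted. BIRC3 was higher in p53 KO and lower in Ctrl than in parental cells, and p53 KO minus Ctrl came to 1.34 on the log2 scale (edgeR, adjusted p = 8.13e-05, 0.00114 at most under the alternatives). BCL2L13 was lower in p53 KO and higher in Ctrl, and the difference was -0.467 (adjusted p = 0.000317, 0.00316 at most). The calls of BCL2L13 against parental were lost in 8 of 15 alternative fits for p53 KO (adjusted p up to 0.145) and 7 of 15 for Ctrl (up to 0.0921), and that of BIRC3 in 5 of 15 for p53 KO (up to 0.0908). All 3 p53 KO libraries lay on one side of all 3 Ctrl libraries in both genes.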

How the results depend on the processing

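Replicate numbers showed no sign of pairing: deviations from group means correlated between -0.348 and 0.041 in same-numbered libraries (9 pairs of libraries). Pairs with different numbers had -0.222 to 0.395 (18 pairs). With 3 libraries per group this cannot show that the libraries were unpaired. With the replicate number as a block, 2 genes in place of 4 were called against both controls (BCL2L13 and BIRC3 were lost), 6 in place of 9 against parental, 11 against Ctrl as before, and 9 in place of 11 between Ctrl and parental. Requiring a log2 fold change of at least 1 left 2 genes against parental (BMF and CASP1), 1 against Ctrl (BIRC3), 3 between Ctrl and parental and 0 against both controls, also 0 by edgeR at an unadjusted p under 0.05 and 0 by DESeq2. The share of all genes passing this threshold was not counted, so these numbers cannot be read as particular to the genes described. Leaving out 1 library moved the number from 5 (without any 1 of the parental libraries or p53 KO replicate 1) to 12 (without Ctrl replicate 1 or 3) against parental, and from 10 to 15 against Ctrl. It moved it from 7 (without parental replicate 1) to 13 between Ctrl and parental, and from 1 (without p53 KO replicate 1, which kept TNFRSF21) to 5 against both controls. DESeq2 called 11 genes against parental, 13 against Ctrl, 4 against both and 11 between Ctrl and parental. Over all genes the share called against parental moved too, at 18.1% in the report, 12.1% with the block, 20.4% by DESeq2 and 10.6% to 33.5% with 1 library left out. Against Ctrl it was 29.2%, 23.5%, 30.6% and 21% to 35%, and between Ctrl and parental 20.3%, 11.7%, 23.8% and 9.34% to 29.6%. No call of the 7 genes given in full changed direction. The cause of these moves was not tested. With 3 libraries per group, a gene of low count such as BCL2L14 could not be shown to differ at this depth.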
